A study of Homo sapiens with 4 samples.

Results

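The ATP8/ATP6 mRNA is a single mitochondrial transcript that carries the reading frames of MT-ATP8 and MT-ATP6, and the end of the first frame overlaps the start of the second. It was taken as positions 8365 to 9205 of the heavy-strand values on the human mitochondrial chromosome, which is 841 of 16500 positions and 2 of 37 genes. The files number positions as the standard reference does, lowered by 1 downstream of the placeholder position in the large ribosomal RNA gene. The ATP8 frame occupies positions 8365 to 8571 and the ATP6 frame begins at 8526, so that 161 nt are read for ATP8 alone (8365 to 8525), 46 nt for both proteins (8526 to 8571) and 634 nt for ATP6 alone (8572 to 9205). All of these positions are exonic and coding, since the mitochondrial gene table lists no intron here. The rule that defines the members uses positions only.

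The measurement was chemical probing of RNA with dimethyl sulfate (DMS), a reagent that methylates adenine and cytosine bases that are not paired. A reverse transcriptase reads through the methylated base and leaves a mismatch, so the share of mismatched reads at a position is a readout of how accessible that base was. Mitochondria were isolated from HEK-293T cells, an established human embryonic kidney line that the labels also call HEK 293, and were exposed to 1% DMS for 5 min at 37 °C before total RNA was extracted. The first group is wild type, with 2 biological replicates. The second lacks LRPPRC (LRPPRC KO), also with 2 biological replicates, and was treated alike. How the knockout was made, and whether the replicates come from 1 clone, is not given in the sources used here. The transcript of LRPPRC itself, which is nuclear, was not analysed here, so the labels of the knockout libraries were not checked by their own gene, and no library without DMS was analysed here.

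ATP8 and ATP6 are membrane subunits of ATP synthase, the enzyme that makes ATP from the proton gradient across the inner mitochondrial membrane. ATP6 forms part of the proton channel, and ATP8 is a small subunit of the membrane-embedded stator. Because their frames overlap in different phases on a transcript with no separate leader for ATP6, the ribosome has to start ATP6 inside the coding sequence of ATP8. LRPPRC is an RNA-binding protein of the mitochondrial matrix that acts with SLIRP and is known for maintaining mitochondrial mRNAs, their polyadenylation and their translation.

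The sequences on which the results turn were read from the base column of the heavy-strand files, 5′ to 3′ in the sense of the mRNA, with T for U. The start of ATP8 (8365 to 8394) is shown first, with its start codon in capitals, because it opens the transcript. The overlap (8526 to 8571) follows, with the ATP6 start codon and the ATP8 stop codon in capitals. The next 2 sequences can each fold back into a hairpin, with their paired bases in capitals. One lies at the ATP6 start (8525 to 8551) and the other inside ATP6 (8846 to 8885). The last 2 hold the positions with the largest falls in the knockout, in capitals: a stretch of ATP6 (8765 to 8800) and the end of the ATP6 frame (9167 to 9205).
ATP8 start: ATGccccaactaaatactaccgtatggccc
Overlap of the frames: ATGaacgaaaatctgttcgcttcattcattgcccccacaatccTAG
Hairpin at the ATP6 start: AATGAACGAAaatctgTTCGcTTCATT
Hairpin inside ATP6: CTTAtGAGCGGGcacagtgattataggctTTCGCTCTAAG
Stretch of falls in ATP6: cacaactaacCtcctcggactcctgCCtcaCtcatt
End of ATP6: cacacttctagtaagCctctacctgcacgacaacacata

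Of the 557 A and C positions of the mRNA, 553 were tested, those with a mean mismatch fraction over the 4 libraries from 0.2% to 30%. Of the 4 left out, A 8442, A 8490 and A 8889 lay below the lower limit, the last with 0.165% in wild type against 0.199% in the knockout. Just inside it were A 8497 (0.231% and 0.224%) and A 8496 (0.316% and 0.304%). A 8859 was read as a mismatch in nearly every read, with 97.4% and 98.3% in the wild-type libraries, against 97.6% and 97.5% in the knockout libraries, and was left out as above the upper limit. No A or C position of the mRNA was at 0 in any library. Replicates agreed closely: over the 553 positions the log2 values correlated with r = 0.997 within wild type and 0.995 within the knockout, against 0.832 to 0.845 between libraries of different groups. The median absolute difference between replicates was 0.030 in wild type against 0.035 in the knockout on the log2 scale. The median absolute change between the groups was 0.24 after the centring described below, and the median change as deposited was -0.495. The files give fractions without read counts, so the depth is unknown and no counting interval could be given.

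The mRNA was less reactive to DMS in the knockout. The mean mismatch fraction over its tested A and C positions was 3.76% and 3.72% in the wild-type libraries, against 2.50% in each knockout library, or 3.74% ± 0.0275 (SD, n = 2) against 2.50% ± 0.00367 (SD, n = 2). The groups did not overlap. Cytosines fell further than adenines: C positions went from 4.51% to 2.76% and A positions from 2.92% to 2.22%, so the ratio of C to A dropped from 1.55 ± 0.00384 to 1.24 ± 0.00493 (SD, n = 2 each). At G and T, which serve as the background of this readout, the mean was 0.947% ± 0.0301 in wild type against 0.816% ± 0.0117 in the knockout. The ratio of A and C over this background was therefore 3.95 ± 0.0966 in wild type against 3.06 ± 0.0392 in the knockout (SD, n = 2 each). By stretch this ratio went from 3.16 to 2.79 in ATP8 alone, from 3.87 to 2.89 in the overlap and from 4.15 to 3.14 in ATP6 alone. The G and T background itself went from 1.10% to 0.860% in ATP8 alone and from 0.932% to 0.805% in ATP6 alone, but from 0.809% to 0.858% in the overlap. The overlap value is a mean of 19 positions and includes G 8556, the highest of them. That base had 2.36% and 3.05% in the wild-type libraries, against 3.31% and 3.81% in the knockout libraries. The 13 T positions of the overlap went from 0.831% to 0.820%.

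**Figure D1:**
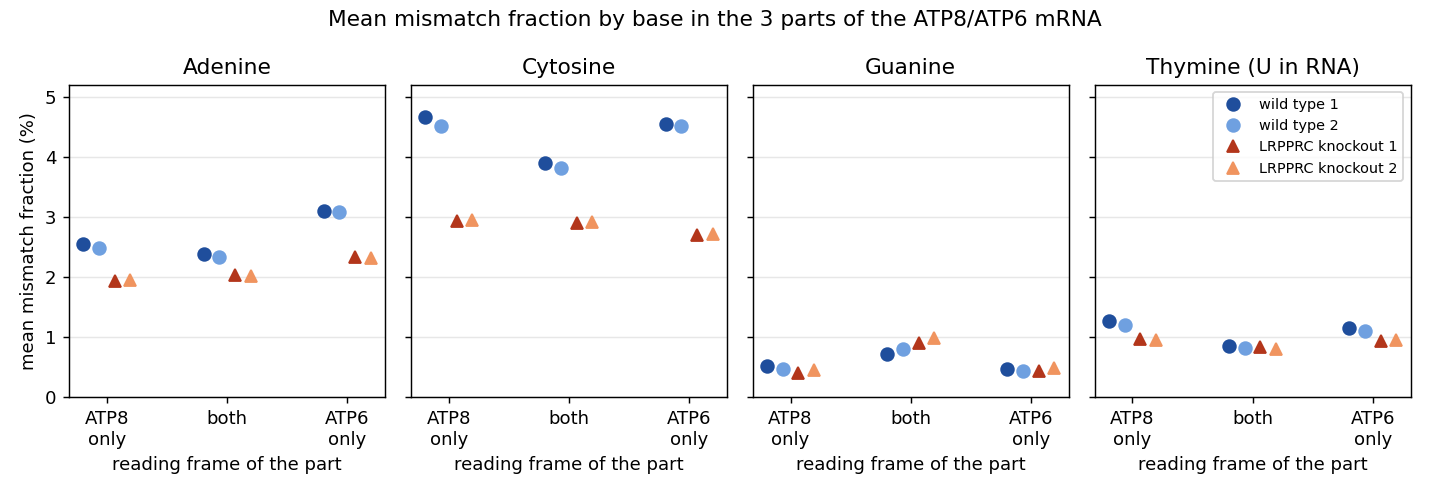
Mean mismatch fraction in percent by base (panels) in the stretches read for ATP8 only, for both proteins and for ATP6 only, with each point 1 library. For A and C the wild-type libraries lie above the knockout libraries in all 3 stretches, whereas G and T stay below 1.3% in both groups.

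Most of this fall is shared with the rest of the heavy-strand values, whose library medians were 0.63 lower on the log2 scale in the knockout. Changes are therefore given both as deposited and after each library was centred on its median over all tested heavy-strand positions. A centred rise means that a position or stretch fell by less than the 0.63 of the library medians, not that its fraction went up. The median change of single positions was -0.50 as deposited and 0.13 after centring. A centred rise below 0.13 at a single position is thus not a smaller fall than at the median position. The median position of ATP6 alone had 0.11. The changes of stretches given below are means over positions, which are not the same measure as this median. The values are log2(fraction + 0.001), a scale that understates the change at low positions. All adjusted p-values are from limma, with Benjamini-Hochberg adjustment over every feature of the same fit.

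The stretch read for ATP8 alone had a mean A and C fraction of 3.52% and 3.42% in the wild-type libraries, against 2.40% in each knockout library. The overlap had 3.17% and 3.10% in wild type and 2.48% in each knockout replicate. The stretch read for ATP6 alone had 3.87% and 3.85% in wild type against 2.52% and 2.53% in the knockout. In wild type the overlap was thus the lowest of the 3 and ATP6 the highest, and in the knockout the overlap lay above ATP8 and close to ATP6.

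Without centring all 3 stretches fell in the knockout, by 0.47 (SE 0.0151) for ATP8 alone, 0.27 (SE 0.0143) for the overlap and 0.54 (SE 0.00455) for ATP6 alone on the log2 scale (limma, adjusted p = 2.86e-07, 3.63e-06 and 1.15e-09). Among the 30 heavy-strand segments of that fit 73.3% fell, and the other 11 mRNA segments had a median change of -0.49, between -0.90 and -0.38. The fall in the overlap was smaller than in any of those 11. This holds for the A and C values themselves: as a ratio over the G and T background of the same stretch, given above, the overlap fell about as far as ATP6 alone and further than ATP8 alone. The ratio of the overlap includes the high background of G 8556 and was not computed without that position alone. Positions 8526 to 8551 of the overlap, which do not hold G 8556, went from 4.57 in wild type to 3.88 in the knockout. Positions 8552 to 8571, which hold it, went from 2.72 to 1.86. This split was made after the values were seen. After centring, ATP8 alone rose by 0.16 (SE 0.0127, limma adjusted p = 0.000143), the overlap by 0.36 (SE 0.0108, adjusted p = 4.29e-06) and ATP6 alone by 0.089 (SE 0.00217, adjusted p = 4.29e-06). Here 90% of the 30 segments were called in either direction and 83.3% as higher, so being called sets none of the 3 apart. Their sizes do differ: the other mRNA segments had a median of 0.14 and a range of -0.27 to 0.25, which the overlap exceeded.

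These directions depended on the base. With A positions alone the centred change was 0.31 in ATP8 alone, 0.47 in the overlap and 0.26 in ATP6 alone. With C positions alone it was 0.25 in the overlap, but -0.02 in ATP8 alone (limma, adjusted p = 0.320) and -0.06 in ATP6 alone (adjusted p = 0.000787). Cytosines fell further than adenines over the whole heavy strand, with median changes as deposited of -0.66 and -0.39. Each library was also centred on its median level of each base, which is not the median change just given. The mean change at cytosines was then 0.16 in ATP8 alone, 0.43 in the overlap and 0.12 in ATP6 alone. Over all tested heavy-strand cytosines it was 0.12. At adenines the changes were 0.18, 0.34 and 0.13, beside 0.082 over all tested adenines. The negative values at cytosines of ATP8 and ATP6 alone are thus relative to the common median of both bases.

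Differences between stretches of the same library need no scaling. The overlap lay below ATP6 alone by 0.34 and 0.36 in the wild-type replicates and by 0.077 and 0.083 in the knockout replicates, on the log2 scale. That is a difference of -0.35 ± 0.0140 against -0.08 ± 0.00422 (SD, n = 2 each). Against ATP8 alone, the overlap went from -0.15 ± 0.00907 in wild type to 0.043 ± 0.00502 in the knockout. ATP8 alone against ATP6 alone went from -0.19 ± 0.0231 to -0.12 ± 0.000797. The groups did not overlap in any of the 3 differences, and the exact two-sided permutation test gave p = 0.333 for each, the smallest value that 2 libraries against 2 allow. With A positions alone all 3 differences kept these signs in both groups. With C positions alone, overlap minus ATP6 alone went from -0.23 in wild type to 0.078 in the knockout. The overlap minus ATP8 alone went from -0.33 to -0.060 at C, and ATP8 alone minus ATP6 alone from 0.097 to 0.14. With ATP6 alone limited to its first stretch, as long as that of ATP8 alone, the change in the difference between ATP8 and ATP6 shrank from 0.071 to 0.016 (exact p = 1.0), while that between the overlap and ATP6 was 0.21 (exact p = 0.333).

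Among the 14 heavy-strand mRNA segments, ordered by their mean A and C fraction, ATP6 alone had the highest mean in wild type, 3.86% ± 0.0127 (SD, n = 2), overlapping in its replicates with ND4 (3.85%). ATP8 alone stood at rank 7 with 3.47% ± 0.0731, overlapping with COX3, and the overlap of the frames at rank 14 with 3.13% ± 0.0492, overlapping with the other frame overlap of the mitochondrial mRNAs, between ND4L and ND4 (3.15%, from only 4 tested positions). In the knockout ATP6 alone again had the highest mean, 2.53% ± 0.00390. The overlap was at rank 2 with 2.48% ± 0.000681, its replicates overlapping with neither neighbour, while the overlap of ND4L and ND4 was last with 1.85%. ATP8 alone stayed at rank 7 with 2.40% ± 0.00386, and its replicates overlapped with those of ND1 above it. By Euclidean distance over the log2 values of the 4 libraries, the mRNA segments most like ATP6 alone were ND2 (0.175), CYTB (0.248) and ND5 (0.284). These are genes of complex I (ND2, ND5) and complex III (CYTB) of the respiratory chain.

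Position by position, 490 of the 553 tested A and C positions fell in the knockout without centring and 19 rose (limma), against 78.3% and 4.73% of all 9910 tested heavy-strand positions. The 490 positions are 88.6% of the mRNA's and the 19 are 3.44%. In the fractions as deposited, 511 positions were lower and 26 higher in both knockout libraries than in both wild-type libraries, against 84.6% and 7.45% of all positions. By part, the test without centring found that 109 fell and 1 rose of 120 in ATP8 alone, 18 fell and 2 rose of 27 in the overlap, and 363 fell and 16 rose of 406 in ATP6 alone. After centring, 295 were higher and 129 lower (53.3% and 23.3%, against 44.9% and 26.6% of all positions). The median centred change was 0.17 in ATP8 alone, 0.33 in the overlap and 0.11 in ATP6 alone, beside 0.13 over all positions. Few positions changed strongly: 10 positions of the mRNA rose and 5 fell by at least 1 after centring, which is 2.71% of its tested positions against 7.64% over the heavy strand, with 3.45% in ATP6 alone, 3.70% (1 position) in the overlap and 0 of 120 in ATP8 alone.

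In ATP8, the first base of the start codon, A 8365, was among the few positions that rose outright. Its fraction was 0.735% and 0.672% in the wild-type libraries, against 0.865% and 0.927% in the knockout libraries, so the groups did not overlap. The change was 0.31 without centring (SE 0.0958, limma adjusted p = 0.0327) and 0.94 after it (SE 0.0940, adjusted p = 0.00121), the largest centred rise of the ATP8 stretch. The bases next to the start codon moved the other way. C 8368 had 4.80% and 4.85% in wild type against 1.89% and 2.06% in the knockout, and C 8369 had 2.55% and 2.30% against 1.04% and 0.962%. Both fell to about 0.41 of the wild-type level (0.409 and 0.413), with centred changes of -0.62 (adjusted p = 0.000622) and -0.57 (adjusted p = 0.00277), the largest falls of this stretch with that of A 8421 (6.38% to 3.01%, -0.43, adjusted p = 0.000275).

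The next largest centred rises in ATP8 alone were positions whose change did not pass the test as deposited. C 8385 had 3.30% and 3.27% in wild type against 3.46% and 3.42% in the knockout, a centred change of 0.69 (adjusted p = 0.000150) but 0.065 as deposited (adjusted p = 0.0603). A 8400 had 2.33% and 2.40% against 2.41% and 2.36%, with overlapping groups, a centred change of 0.64 (adjusted p = 0.000322) and 0.011 as deposited (adjusted p = 0.785). The most reactive tested position of this stretch in wild type was C 8435, at 8.07% and 7.86%, which had 4.42% and 4.54% in the knockout, a centred change of -0.19 (adjusted p = 0.00413).

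In the overlap the change was not even along the sequence. The first stretch of the overlap can fold into the hairpin shown above, in which 10 Watson-Crick pairs join positions 8525 to 8534 with 8541 to 8551 around a loop of 6 nt, with C 8545 bulged out. The ATP6 start codon lies within its 5′ arm. RNAplfold, which predicts pairing from sequence alone, gave these pairs a mean probability of 0.910. The hairpins were found by a scan of the mRNA for at least 9 pairs with at most 1 bulged base and a loop of up to 40 nt, and only these 2 met it. Those limits were set after position values had been seen, so the hairpins serve as a description and their pairing was not tested.

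The 10 A and C positions in the arms of this hairpin had 1.52% and 1.52% in the wild-type libraries, against 1.70% and 1.69% in the knockout libraries. Its 3 loop positions went from 4.34% ± 0.118 to 3.61% ± 0.00141, the bulged C 8545 from 6.17% ± 0.0283 to 5.00% ± 0.0233, and the 23 positions in the 15 nt on each side from 3.83% ± 0.101 to 2.75% ± 0.00612 (SD, n = 2 each). C 8531 alone accounted for most of the higher mean of the arms, as the other 9 positions had 1.44% ± 0.00299 in wild type against 1.45% ± 0.00817 in the knockout. The arms were thus low in both groups and did not share the fall of their surroundings. Without centring, limma called 0 of the 10 arm positions lower (also 0 at an unadjusted p under 0.05) and 2 higher, and called 27 of the 27 loop, bulge and flank positions lower, where 78.3% of all tested positions and 88.6% of those of the mRNA were. G and T positions in the arms had 0.472% in wild type against 0.522% in the knockout.

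**Figure D2:**
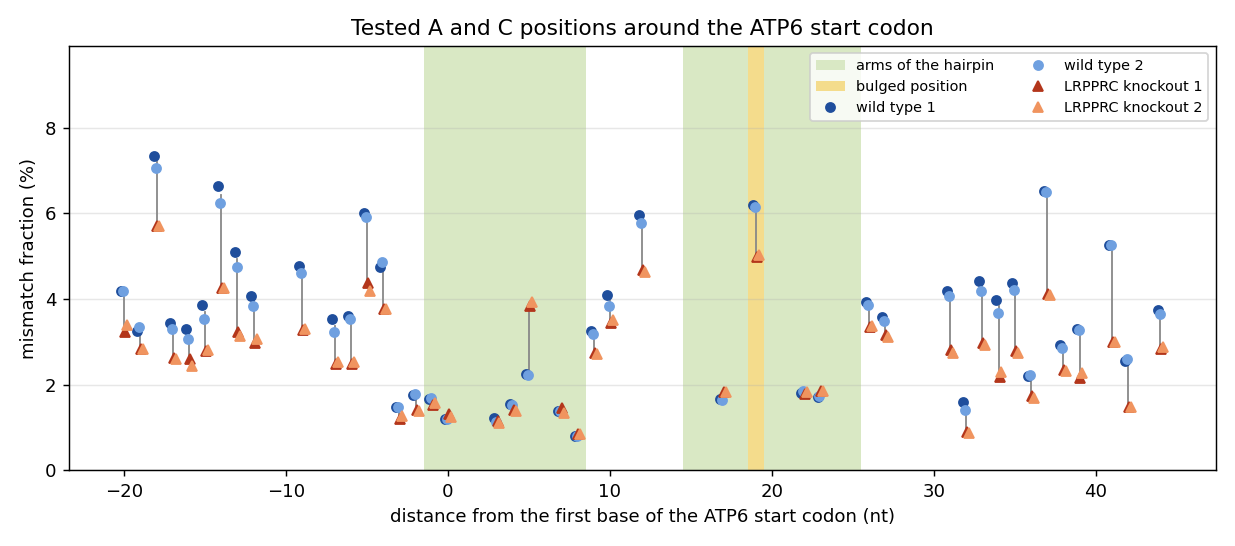
Mismatch fraction in percent of each tested A and C position around the ATP6 start codon, against the distance from its first base in nt; each point is 1 library, lines join the group means, and shading marks the arms and bulge of the hairpin. Arm positions lie below 2% in both groups with 1 exception at 5 nt, which is higher in the knockout, whereas loop, bulge and flanking positions are lower in the knockout.

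The exception was C 8531, which in the hairpin pairs with G 8544 beside the bulge. It had 2.26% and 2.23% in the wild-type libraries, against 3.85% and 3.92% in the knockout libraries. It was the highest arm position in both groups and rose 1.73-fold, by 0.77 without centring (SE 0.0278, limma adjusted p = 2.55e-05) and 1.40 after it (SE 0.0269, adjusted p = 8.97e-05). The next largest centred rises of the overlap also lay in the arms. C 8543 went from 1.65% to 1.83% (0.77, adjusted p = 0.000357) and A 8549 from 1.73% to 1.86% (0.73, adjusted p = 0.000372), the latter with 0.098 as deposited (adjusted p = 0.0989). A 8526, the first base of the ATP6 start codon, had 1.20% and 1.19% in wild type against 1.30% and 1.23% in the knockout, a centred change of 0.71 (adjusted p = 0.00101), and 0.077 as deposited (adjusted p = 0.334).

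The rest of the overlap had levels close to those of ATP6 alone. The 13 tested positions inside the hairpin (8526 to 8551) had 2.52% ± 0.0335 in wild type against 2.40% ± 0.00218 in the knockout, and the 14 beyond it (8552 to 8571) had 3.71% ± 0.0637 and 2.55% ± 0.000707 (SD, n = 2 each). The mean log2 change as deposited was -0.0039 in the hairpin and -0.52 beyond it, beside -0.47 in ATP8 alone and -0.54 in ATP6 alone. Within a library, the stretch beyond the hairpin differed from ATP6 alone by -0.00043 ± 0.0199 in wild type against 0.018 ± 0.000766 in the knockout, so the low level of the overlap in wild type lay in its hairpin. It lay above ATP8 alone, by 0.19 ± 0.00319 in wild type and by 0.14 ± 0.00156 without LRPPRC. The split was made after the values were seen. The 2 centred falls called in the overlap were beyond the hairpin: C 8567 (5.27% to 2.99%, -0.17, adjusted p = 0.00261) and C 8568 (2.58% to 1.49%, -0.13, adjusted p = 0.0440). The call of C 8568 was lost when any 1 library was left out. At the ATP8 stop codon, A 8570 had 3.73% and 3.65% in wild type against 2.83% and 2.87% in the knockout, which is a fall of 0.36 as deposited (adjusted p = 0.000194) and a rise of 0.27 after centring (adjusted p = 0.00106).

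Along the mRNA, 18 of its 28 tiles of 30 nt were higher and 4 lower after centring (limma), against 57.5% and 25.7% of 548 heavy-strand tiles. As deposited, 27 of the 28 fell, against 88.7% of all tiles, and 0 rose in the same fit (also 0 at an unadjusted p under 0.05), against 2.92%. The tile that was not called was that at 8845 to 8874 in ATP6. Its fraction was 1.97% in each wild-type library, against 1.84% and 1.86% in the knockout libraries, the lowest mean of the 28 tiles in both groups, with a mean log2 change of 0.079 without centring (adjusted p = 0.0553) and the largest centred rise of the mRNA, 0.71 (SE 0.0306, adjusted p = 6.47e-06). Its mean fraction was thus lower in the knockout, as in the other 27 tiles, although its mean of log2 values, in which low positions weigh more, was higher. The tile at the ATP6 start, 8515 to 8544, had the next largest, from 2.79% ± 0.0447 to 2.39% ± 0.00420 and 0.48 after centring (SE 0.0156, adjusted p = 2.81e-06). The other tile of the overlap, 8545 to 8574, went from 3.39% to 2.46% with a centred change of 0.21 (adjusted p = 2.40e-05).

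**Figure D3:**
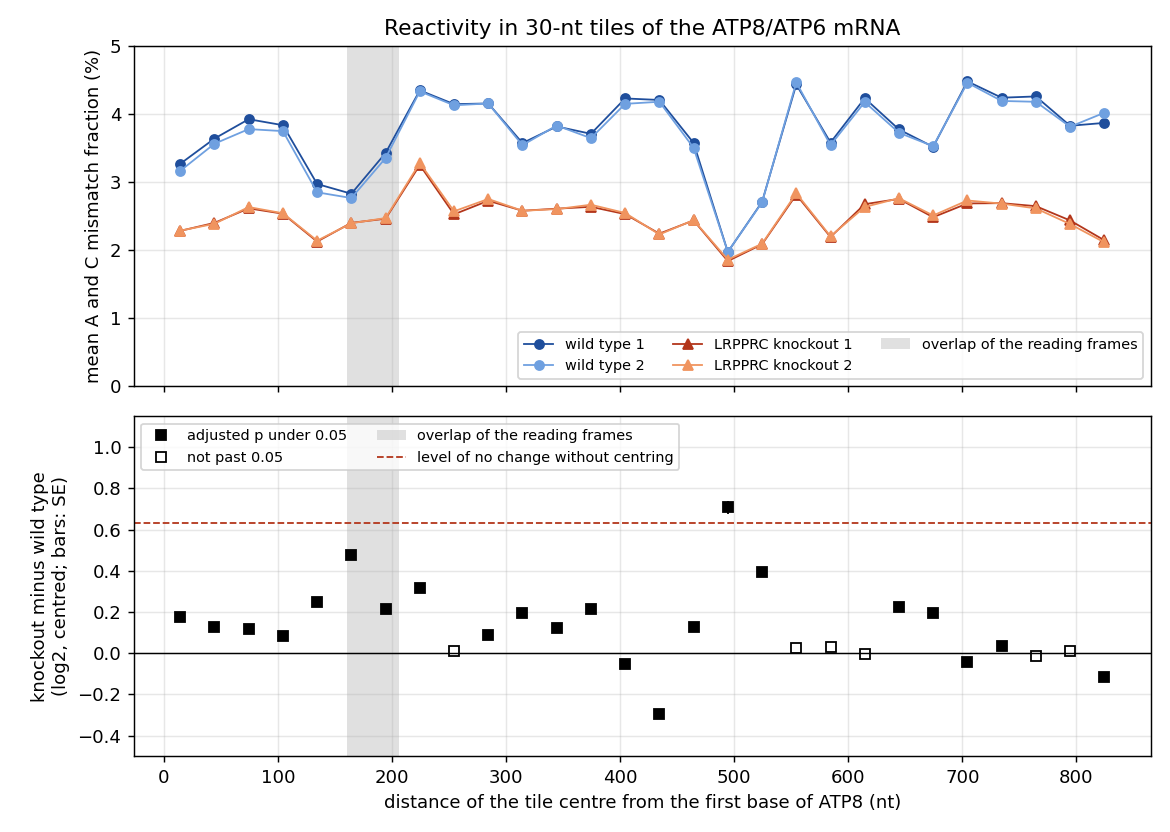
Upper panel, mean mismatch fraction in percent over the tested A and C positions of each 30-nt tile, per library; lower panel, centred log2 change with its SE, filled where the limma adjusted p is under 0.05, both against the distance from the first base of ATP8 in nt. The dip near 495 nt is the tile at 8845 to 8874, where the groups lie closest together, and only that tile lies above the dashed line that marks no change in mean log2 value without centring, although its mean fraction is lower in the knockout.

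The dip of the tile profile coincides with the hairpin inside ATP6, in which 11 pairs, 2 of them G-U, join positions 8846 to 8857 with 8875 to 8885 around a loop of 17 nt, with T 8850 bulged out. In contrast with the hairpin at the ATP6 start, RNAplfold gave these pairs a mean probability of only 0.00500. The 9 A and C positions in its arms had 0.987% and 1.01% in the wild-type libraries, against 1.76% and 1.74% in the knockout libraries. Each of the 9 was called higher in the knockout without centring, against 4.73% of all tested heavy-strand positions. None overlapped between the groups, where 7.45% of all positions were higher without overlap. As said above, the limits of the hairpin scan were set after position values had been seen. The mean of the arms rose to 1.75 times the wild-type level, while their flanks fell. The 19 positions in the 15 nt on each side went from 3.35% ± 0.0362 to 2.19% ± 0.0191, 19 of 19 called lower (78.3% over all tested positions). The 7 loop positions went from 2.44% ± 0.00455 to 2.06% ± 0.0230, with 4 called lower and 2 higher. G and T positions in the arms were also higher, going from 0.370% ± 0.0122 to 0.507% ± 0.0293 over 13 positions. Of these, 8 were higher with no overlap between the groups. The same held for 20.1% of the 284 G and T positions of the mRNA and 37.7% of the 6235 of the heavy strand.

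**Figure D4:**
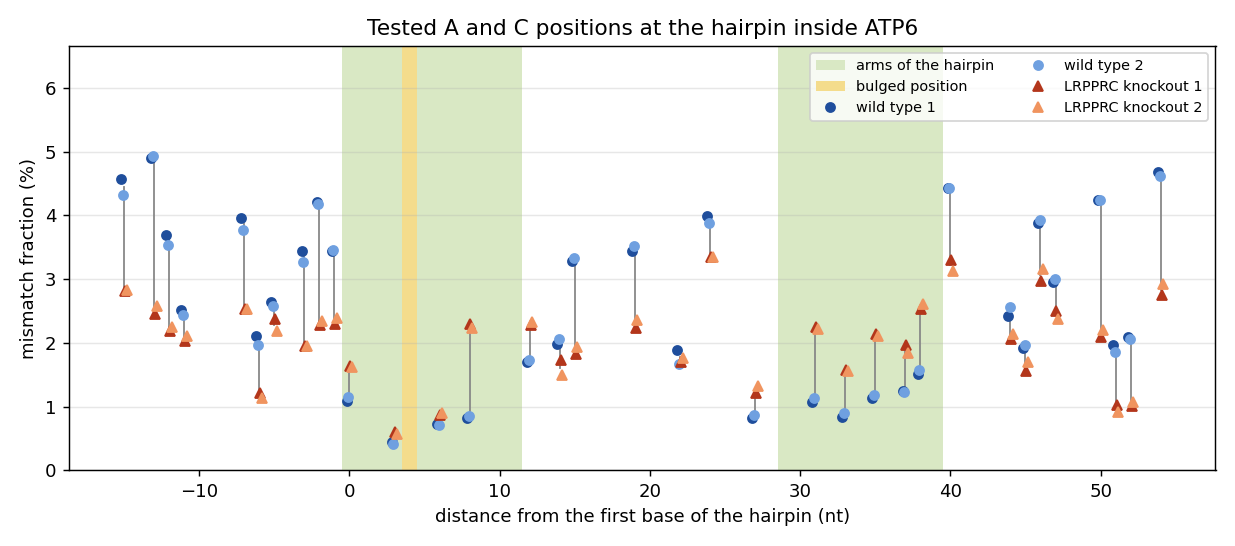
Mismatch fraction in percent of each tested A and C position at the hairpin inside ATP6, against the distance from its first base in nt; each point is 1 library, lines join the group means, and shading marks the arms and the bulge. The 9 arm positions are higher in both knockout libraries, whereas the 19 flanking positions are lower.

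The 3 largest rises of ATP6 all lay in these arms. C 8854, which faces G 8878 in the hairpin, had 0.822% and 0.855% in the wild-type libraries, against 2.30% and 2.23% in the knockout libraries, a 2.70-fold rise (1.96 after centring, SE 0.0608, limma adjusted p = 0.000132). C 8877 had 1.08% and 1.13% against 2.24% and 2.22%, a 2.02-fold rise (1.58, adjusted p = 0.000159). C 8881 had 1.13% and 1.18% against 2.14% and 2.10%, a 1.84-fold rise (1.45, adjusted p = 0.000169). In each of them the knockout reached 2.1 to 2.3%, close to the knockout mean of the flanks (2.19%). Of the 19 positions of the mRNA that rose as deposited, 9 lay in the arms of this hairpin and 2 in those of the hairpin at the ATP6 start. The other 8 lay outside these arms, and 2 of them, C 8858 and C 8873, were in the loop of the hairpin inside ATP6. A 8859, the position with mismatches in over 97% of reads in every library of both groups, lies in the loop of the hairpin inside ATP6. It is not among the tested loop positions, and its level is not read as accessibility here. The source of its mismatches was not tested, and the sequence was printed and folded with the A of the base column.

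The largest falls were single cytosines of ATP6. C 9182 was the most reactive tested position of the mRNA in wild type, with 13.3% and 14.0%, and dropped to 2.16% and 2.29% in the knockout, 0.163 of the wild-type level (-1.94 after centring, SE 0.0458, limma adjusted p = 0.000117). The tile that holds it, 9175 to 9204, went from 3.94% ± 0.106 to 2.13% ± 0.0215 (-0.12, adjusted p = 0.00189). The other positions of high wild-type level fell less. C 8913 had 8.56% and 8.62% against 4.02% and 3.83% (-0.48, adjusted p = 0.000444), C 9073 had 8.16% and 8.39% against 3.95% and 4.07% (-0.40, adjusted p = 0.000609), and C 9106 had 7.97% and 8.05% against 4.91% and 5.03% (-0.047, adjusted p = 0.178).

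The other strong falls were close together. C 8775 had 6.10% and 6.17% in the wild-type libraries, against 1.46% and 1.59% in the knockout libraries, 0.248 of the wild-type level (-1.31, SE 0.0448, adjusted p = 0.000150). C 8790 had 5.27% and 5.25% against 1.25% and 1.20%, 0.232 of the wild-type level (-1.39, SE 0.0335, adjusted p = 0.000117). Both lie in the stretch 8765 to 8800, chosen after its values were seen, where 4 cytosines fell by more than 1 after centring and the mean over 24 tested positions went from 3.98% to 2.09%. Of these 24, 11 were called lower, every one a cytosine, and 6 higher (26.6% and 44.9% over all tested positions), so the fall was not shared by all bases of the stretch. The tile with the largest fall of the mRNA, 8785 to 8814, overlaps it and went from 4.19% ± 0.0184 to 2.23% ± 0.00820 (-0.29, SE 0.00996, adjusted p = 3.14e-06).

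The signal became more even in the knockout. The Gini index, which is 0 when all positions of a stretch have the same value and needs no scaling between libraries, went from 0.263 to 0.237 in ATP8 alone, from 0.285 to 0.250 in the overlap and from 0.233 to 0.189 in ATP6 alone (limma, adjusted p = 0.00298 for each). Of the 29 segments with an index, 44.8% fell. The median change of the other mRNA segments was -0.027, beside -0.025 in ATP8 alone, -0.036 in the overlap and -0.045 in ATP6 alone. The values depended on the base. With C positions alone the index of ATP8 alone went the other way, by 0.0278 (limma, adjusted p = 0.00595), and the changes of the overlap and of ATP6 alone shrank to -0.0135 and -0.0136. With A positions alone that of ATP6 alone was -0.0241.

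Predicted pairing went with reactivity at cytosines more than at adenines, in both groups alike. Across the 553 positions, which share libraries and base composition, Spearman's rho between the level and the unpaired probability from RNAplfold was 0.198 in wild type against 0.199 in the knockout. For the 285 cytosines it was 0.30 and 0.295, and for the 268 adenines 0.0193 and 0.0506. With the whole heavy strand folded instead, the values for adenines were 0.0859 and 0.114 and those for cytosines 0.320 and 0.302. The 366 positions with a probability over 0.8 went from 3.91% ± 0.0355 to 2.60% ± 0.00638, and the 28 under 0.2 from 2.31% ± 0.00303 to 2.01% ± 0.00624 (SD, n = 2 each). With the whole strand folded, the 30 positions under 0.2 went from 2.81% to 2.07%. The gap in mean level between predicted unpaired and paired positions was therefore smaller in the knockout. With the mRNA folded alone, the positions under 0.2 include arm positions of the hairpin at the ATP6 start, such as C 8531 and C 8543. The smaller gap is thus not separate from the result described for those arms.

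Levels differed by the place of a base in its codon, but by less than between the groups. In ATP6 alone, C at the second codon position had 4.83% in wild type against 2.93% in the knockout, above C at the first (4.39% and 2.62%) and the third (4.43% and 2.60%). Adenines of ATP6 alone ranged from 2.86% to 3.26% in wild type and from 2.24% to 2.39% in the knockout over the 3 codon positions. In ATP8 alone, adenines ranged from 2.40% to 2.75% in wild type and from 1.89% to 2.01% in the knockout. Its cytosines ranged from 4.42% to 4.69% in wild type and from 2.93% to 2.98% in the knockout. The share of deletions, the other trace a methylated base can leave, was small and moved the same way, from 0.206% ± 0.00318 to 0.135% ± 0.000894 at A and C and from 0.0902% ± 0.00499 to 0.0653% ± 0.000468 at G and T of the mRNA.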

How the data were processed

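Isolated mitochondria of HEK-293T cells, 2 wild-type and 2 LRPPRC knockout libraries, were probed with DMS. The deposited values are mismatch fractions per position (0 to 1), with a second column that adds deletions, per the file headers. cutadapt and Bowtie2 are named in the submitters' processing notes; their settings, the genome build and the depth are not given in the sources used here. Gene positions were found from the rule for this transcript, with names as in the gene table of the assembly GRCh38.p14.

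Tested positions were A or C with a mean fraction from 0.002 to 0.3. Values were taken as log2(fraction + 0.001) and centred on each library's median over 9910 tested heavy-strand positions. limma 3.58.1 (R 4.3.3; lmFit, eBayes with a trend, Benjamini-Hochberg, two-sided, 0.05) was fitted to positions, to segments with at least 4 tested positions, to 30-nt tiles with at least 8 and, without a trend, to the Gini index of segments with at least 10. p-values measure the spread between these libraries only. Unpaired probabilities came from RNAplfold (ViennaRNA 2.7.2, window 240, span 160), run on the mRNA alone. Fits were tested on simulated data.

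The positions named are the A or C of the start and stop codons, the 3 largest called rises and falls after centring in each stretch, the 5 most reactive in wild type and any above the upper limit; the tiles named are the 2 largest rises, the 2 largest falls and those of the overlap; the genes most like ATP6 are the 3 nearest by distance. The members, lists and tests were chosen with earlier results of these data known. Alternatives changed the pseudocount, the limits, the base, the centring, the tile length, the length of the ATP6 stretch, the folded sequence, the block and the libraries.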

Additional observations from a re-analysis of the deposited data

Results flagged for a closer look

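At 9 positions of the mRNA with G or T, the bases that serve as background, both knockout libraries lay above both wild-type libraries and the knockout mean was at least 1%. They are 3.17% of the 284 G and T positions of the mRNA, against 15.6% of the 6235 of the heavy strand. The highest was G 8556, in the overlap beyond its hairpin, with 3.56% in the knockout. The others were T 8441 (1.44%), T 8537 (1.04%) and T 8539 (1.20%) in the loop of the hairpin at the ATP6 start, T 8602 (1.45%), T 8818 (1.03%), T 8822 (1.06%), T 9082 (1.13%) and T 9186 (1.28%). The source of this signal was not tested.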

How the results depend on the processing

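Centring decided the direction of the changes of whole stretches. Without it the change was -0.47 in ATP8 alone, -0.27 in the overlap and -0.54 in ATP6 alone, and 19 positions were higher and 490 lower, with 0 tiles higher and 27 lower. With bases apart and no centring, added after seeing the data, it was -0.32, -0.16 and -0.37 for A and -0.65, -0.38 and -0.69 for C. With C alone and centring it was -0.018 in ATP8 alone and -0.059 in ATP6 alone, and the Gini index of ATP8 alone rose by 0.0278. Beyond its hairpin, the overlap against ATP8 alone changed by -0.052. The tiles called lower, 4 above, were 7 with a pseudocount of 0.01, 7 with tiles of 20 nt, 1 with tiles of 50 nt and 2 with A and C each centred. That last setting also turned C 8567 (0.010), C 8568 (0.051) and C 9106 (0.13) and ended the call of C 8435 (adjusted p = 0.758), and no centring turned A 8570 (-0.36). With ATP6 alone limited to its first stretch its change was 0.14. No other sign changed, and the causes were not tested. Leaving out each library kept every stretch in its direction: 0.14 to 0.18 in ATP8 alone, 0.35 to 0.37 in the overlap, 0.087 to 0.090 in ATP6 alone, with 241 to 279 positions higher and 96 to 120 lower. The main fits did not treat the replicate numbers as pairs. Deviations of same-numbered libraries correlated with r = 0.000704 over all tested positions and 0.086 over those of the mRNA. With 2 libraries per group these values cannot show whether the libraries were processed in pairs. With the replicate block, 283 positions were higher and 123 lower, the overlap changed by 0.36, and only C 8568 among the named positions lost its call (adjusted p = 0.0832). Depth is unknown, so the precision of a single position rests on 2 replicates per group.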
